A study of Homo sapiens with 6 samples.

Results

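Genes of the Notch pathway were followed through 6 single-cell RNA libraries from human neuroblastoma cells of the established line SK-N-BE(2)-C that had received DMSO, TSA or E6R. The 10 genes were taken from the deposited gene table by a list of symbols. They were the receptors NOTCH1, NOTCH2 and NOTCH3, the ligands and ligand-like proteins JAG1, DLL3 and DLK1, and the transcription factors HES1, HES4, HES6 and HEY1, 10 of 36601 genes in the table. DMSO is the solvent control. TSA commonly stands for trichostatin A, which blocks the catalytic site of histone deacetylases (HDACs). E6R is known here by its code name only, and the title of the series refers to inhibition of an HDAC complex by non-enzymatic means. Each treatment had 2 libraries, all from the same line with no genetic change named in the labels. The labels used here state neither the dose nor the length of treatment. Nothing in the labels says that the 2 libraries of a group came from separate cultures, so p-values measure only the spread between these libraries, which may be technical.

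Notch receptors sit on the cell surface and are activated by ligands on neighbouring cells. Binding leads to cleavage by an ADAM protease and then by gamma-secretase. The freed intracellular domain joins the DNA-binding protein RBPJ and a MAML coactivator. Together they switch on some HES and HEY genes, which encode repressors. Neuroblastoma arises from the sympathetic lineage. In neuroblastoma, Notch activity has been tied to a mesenchymal cell state, as against the adrenergic state marked by catecholamine synthesis genes.

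HES1, HES4 and HES6 belong to one family and all rose under TSA, so the stretch upstream of each is shown. RefSeq (GRCh38.p14) held a promoter window, from 250 bases before the start of the gene to 50 bases after it, for 7 of the 10 genes. Bases -150 to -61 from the RefSeq start are printed 5′ to 3′ on the strand of the gene, at chr3:194135998-194136087 on the plus strand for HES1, chr1:1000158-1000247 on the minus strand for HES4 and chr2:238240099-238240188 on the minus strand for HES6. The stretches of HES4 and HES6 reach into or lie within the GENCODE 29 span of the gene used for its coordinates. Capitals mark GTGGGAA, the core bound by RBPJ, or its last 6 letters TGGGAA.
HES1: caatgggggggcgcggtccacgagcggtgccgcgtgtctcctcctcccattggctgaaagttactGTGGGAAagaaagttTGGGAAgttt
HES4: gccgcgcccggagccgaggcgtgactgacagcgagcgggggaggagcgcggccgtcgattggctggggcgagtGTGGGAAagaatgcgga
HES6: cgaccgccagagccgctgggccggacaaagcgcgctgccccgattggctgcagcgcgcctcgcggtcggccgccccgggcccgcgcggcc
On either strand, GTGGGAA was in 6.25% of the 35116 RefSeq windows of this length, and TGGGAA, which lies inside it, in 24.0%. HES1 had GTGGGAA at -85 and a second TGGGAA at -70, and HES4 had GTGGGAA at -77. Neither motif was in the windows of HES6, NOTCH1, NOTCH2, NOTCH3 or JAG1. These matches are a description of letters, and binding was not measured here.

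The libraries held 17589 cells, between 1861 and 3946 each, with 4206366 to 26180262 UMIs (unique molecular identifiers, 1 per captured RNA molecule) in cells. The 2 DMSO libraries were the shallowest. Among the cells, 102 barcode sequences occurred in more than 1 library. All 10 adrenergic markers were detected in each library, at a summed level of 3444 to 5867 CPM (UMIs scaled to 1000000 per library). Immune markers summed to at most 4.0 CPM and Schwann cell markers to 11.2 to 21.3 CPM, with the defining Schwann gene SOX10 at 0 to 3 UMIs per library. The second DMSO library and the second E6R library stood apart in the sum of mesenchymal markers. The 9 markers without VIM summed to 85.3 and 120 CPM there, against 288 to 552 CPM in the other 4. Levels are CPM scaled by the trimmed mean of M values (TMM), from 3′ UMI counting, and are compared between libraries, not between genes.

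**Figure D1:**
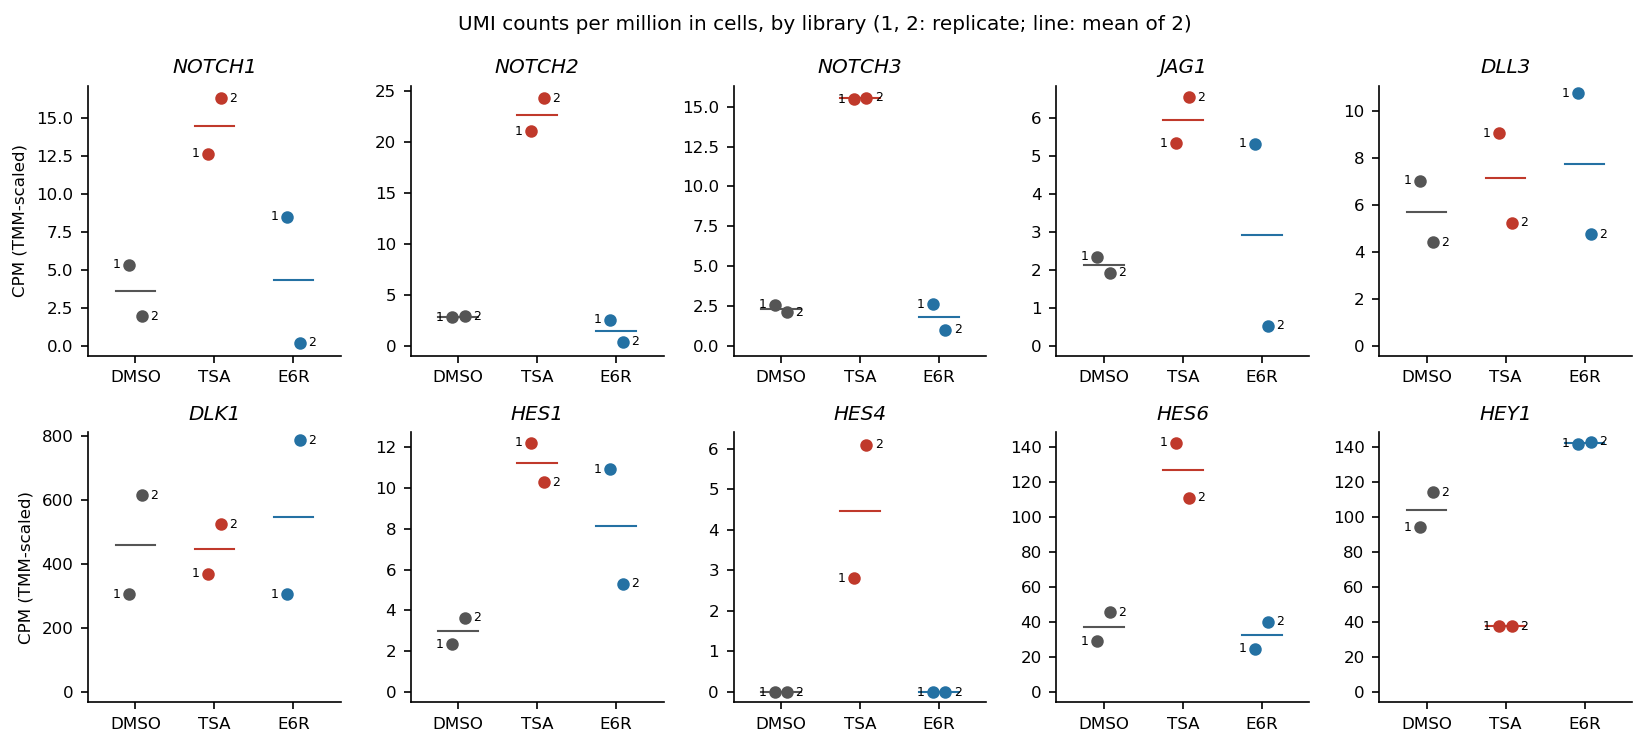
CPM of each of the 10 genes (vertical axis, from 0, scaled by TMM) in the 2 libraries of each treatment, with the replicate number beside each point and a line at the mean. NOTCH2, NOTCH3, HES4 and HES6 were highest in both TSA libraries, HEY1 was lowest in them, and DLK1 separated the libraries numbered 1 and 2 in each group.

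TSA against DMSO asked what an inhibitor of HDAC enzymatic activity changed. NOTCH2, NOTCH3, HES1, HES4 and HES6 rose and HEY1 fell, so 6 of the 10 genes passed edgeR's quasi-likelihood test at an adjusted p under 0.05. Over all 16763 genes tested, 29.7% passed, 16.2% higher and 13.5% lower. The median log2 fold change was 1.83 over the 10 genes and -0.01 over all genes tested. With total counts in place of TMM the median of all genes moved to -0.32, and the share of calls that were higher moved from 54.7% to 33.8%, while the same 6 genes were called in the same directions. The count fell to 4 without the first DMSO library, 3 without the second, 3 without the first TSA library and 2 without the second, and it was 8 without either E6R library.

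Among the receptors, NOTCH2 (ENSG00000134250; GRCh38 chromosome 1, 119911553 to 120069626, minus strand) had 2.76 and 2.87 CPM in the DMSO libraries and 21.0 and 24.3 CPM under TSA. The E6R libraries had 2.53 and 0.376 CPM. NOTCH2 was thus high in both TSA libraries with no overlap with the other groups, and its log2 fold change of TSA over DMSO was 3.0 (SE 0.73, adjusted p = 0.0192). Its call was lost when either DMSO or either TSA library was left out, with adjusted p of 0.0941, 0.0991, 0.0782 and 0.101 in the order first and second DMSO, first and second TSA. NOTCH3 (ENSG00000074181; chromosome 19, 15159038 to 15200981, minus strand), a receptor best known from vascular smooth muscle, had 2.55 and 2.10 CPM under DMSO and 15.5 and 15.6 CPM under TSA. Its E6R values of 2.59 and 0.978 CPM overlapped those of DMSO, and the TSA values lay above both groups. The log2 fold change was 2.74 (SE 0.53, adjusted p = 0.00795), with adjusted p of 0.0590 without the second DMSO library, 0.0528 without the first TSA library and 0.0589 without the second. Human-specific copies of part of NOTCH2 exist, and the copies in the gene table had at most 14 UMIs per library and were not tested, so NOTCH2 reads that match them are uncertain.

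NOTCH1 (ENSG00000148400; chromosome 9, 136494433 to 136545786, minus strand), the most studied receptor, had 5.31 and 1.91 CPM under DMSO, 12.6 and 16.3 under TSA, and 8.47 and 0.188 under E6R. Both TSA libraries lay above all others, but the E6R libraries were far apart, with 134 and 5 UMIs. The TSA over DMSO log2 fold change was 2.01 (SE 1.25, adjusted p = 0.253), which did not pass. It passed without the first E6R library (adjusted p = 0.00797), without the second (0.00656), with only DMSO and TSA in the fit (0.0116) and with no low-count filter (0.00083).

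Of the ligands, JAG1 (ENSG00000101384; chromosome 20, 10637684 to 10673999, minus strand), a canonical ligand, had 2.34 and 1.91 CPM under DMSO, 5.32 and 6.53 under TSA, and 5.31 and 0.527 under E6R. The TSA libraries lay above the DMSO libraries, and the E6R libraries fell on both sides. The log2 fold change of TSA over DMSO was 1.48 (SE 0.93, adjusted p = 0.259), and it passed without the first E6R library (0.0333), without the second (0.0242) and with only DMSO and TSA in the fit (0.0320). The sum of 9 mesenchymal markers without VIM was also larger in the first DMSO and E6R libraries and in both TSA libraries. Under TSA most of it was FN1, at 380 and 373 CPM of 520 and 466. COL1A1, COL3A1, YAP1 and SNAI2 were also higher in both TSA libraries than in the second DMSO and E6R libraries. CD44 and TWIST1 were lower, and LUM and PRRX1 overlapped. CD44 had 19.6 and 13.5 CPM under TSA, against 27.2 and 54.1 in the second DMSO and E6R libraries. Cells that held no UMI of the 9 mesenchymal score genes were taken alone, an alternative added after seeing the data. In them NOTCH1 had 4.63 and 2.42 CPM under DMSO, 10.7 and 15.2 under TSA, and 7.62 and 0.0921 under E6R. JAG1 had 0.330 and 1.82, 4.62 and 4.82, and 3.61 and 0.322 CPM in the same order. With only these cells the same 6 genes were called for TSA, and NOTCH1 and JAG1 were not. The part of marker RNA in the NOTCH1 and JAG1 levels was not tested further.

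DLL3 and DLK1 did not pass in any comparison of treatments. DLL3 (ENSG00000090932; chromosome 19, 39498895 to 39508481, plus strand), a divergent ligand that acts inside the cell that makes it, had 7.01 and 4.40 CPM under DMSO, 9.04 and 5.22 under TSA, and 10.7 and 4.74 under E6R, with all 3 groups overlapping. DLK1 (ENSG00000185559; chromosome 14, 100725705 to 100738224, plus strand), an imprinted ligand-like protein of chromaffin and progenitor cells, had 305 and 614 CPM under DMSO, 369 and 524 under TSA, and 305 and 786 under E6R. In each treatment the second library was higher, and the groups overlapped fully. The TSA over DMSO log2 fold change of DLK1 was -0.04 (SE 0.47, adjusted p = 0.959) and that of E6R over DMSO 0.25 (SE 0.47, adjusted p = 0.819). The sign of both, and of the DLL3 changes, turned under several alternatives.

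Among the HES and HEY genes, HES6 (ENSG00000144485; chromosome 2, 238238267 to 238240662, minus strand) is an unusual family member known to oppose HES1 and favour neuronal differentiation. It had 29.1 and 45.5 CPM under DMSO and 142 and 111 CPM under TSA. Under E6R it had 24.8 and 40.3 CPM, within or just below the DMSO range. Its TSA over DMSO log2 fold change of 1.76 (SE 0.32, adjusted p = 0.00634) passed in all 21 alternatives. A transcript on the other strand overlaps HES6 and was listed with 1 to 6 UMIs per library. No source used here states whether strand was used in counting, so reads of the pair may not be separable.

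HES1 (ENSG00000114315; chromosome 3, 194136145 to 194138732, plus strand), the classical target, had 2.34 and 3.63 CPM under DMSO, 12.2 and 10.3 under TSA, and 10.9 and 5.31 under E6R. The libraries of both treatments lay above both DMSO libraries, which held 11 and 19 UMIs. The TSA log2 fold change was 1.91 (SE 0.48, adjusted p = 0.0210). The call was lost without the first DMSO library (0.111), the second (0.0666), the first TSA library (0.113) and the second (0.0866).

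HES4 (ENSG00000188290; chromosome 1, 998962 to 1000172, minus strand), a relative of HES1 that mouse lacks, was counted only under TSA, with 37 and 70 UMIs (2.81 and 6.09 CPM). All 4 DMSO and E6R libraries held 0 UMIs of it in cells. Against a floor of 3 UMIs over the group, HES4 was at least 14.4-fold higher under TSA than under DMSO (adjusted p = 0.00971). DESeq2 did not call it (adjusted p = 0.271), nor did edgeR without the second TSA library (0.0748).

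HEY1 (ENSG00000164683; chromosome 8, 79764010 to 79767863, minus strand), a repressor of the related HEY family, was the member that fell. It had 94.1 and 114 CPM under DMSO, 37.5 and 37.6 under TSA, and 142 and 143 under E6R, so that no groups overlapped. The TSA over DMSO log2 fold change was -1.47 (SE 0.19, adjusted p = 0.00205), and it passed in all 21 alternatives. HES6 and HEY1, both transcription factors among the 10 genes, therefore changed in opposite directions under TSA.

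**Figure D2:**
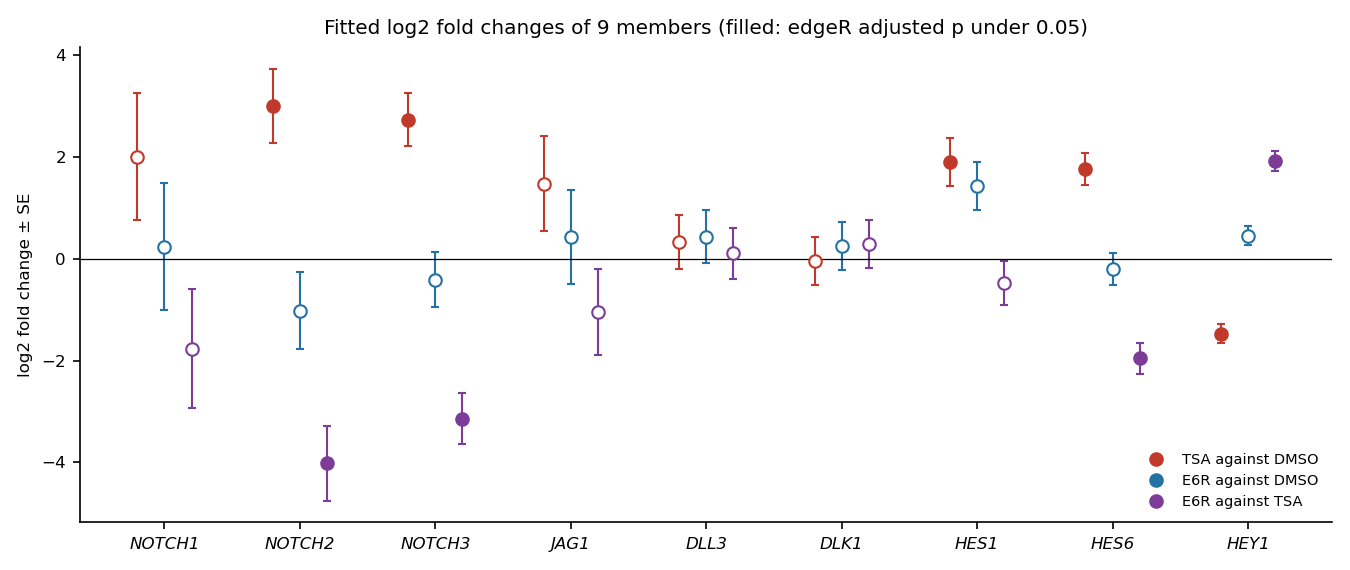
Log2 fold change with its SE (vertical axis) for 9 genes in 3 comparisons, filled where the edgeR adjusted p was under 0.05. HES4 is left out because 2 groups held no UMI of it. Among the red points HES6 lies at 1.76 and HEY1 at -1.47, and no blue point (E6R against DMSO) is filled.

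E6R against DMSO asked what the treatment labelled E6R changed. The share of mitochondrial UMIs differed with it, at 1.55% and 1.51% in the E6R libraries. It was 5.83% and 6.20% under DMSO and 6.08% and 9.71% under TSA. The part of this share in the comparisons with E6R was not tested, as it cannot be told apart from the treatment. Fits without mitochondrial and ribosomal protein genes, or with a lower limit on mitochondrial UMIs, do not separate them. None of the 10 genes passed edgeR's test, where 0% of 16763 genes did. At an unadjusted p under 0.05 there were 2 of the 10 genes and 2913 of all genes. DESeq2 called 0 of the 10 and 361 of all genes. HEY1 lay higher in both E6R libraries than in both DMSO libraries, with a log2 difference of 0.45 (SE 0.18, unadjusted p = 0.0407, adjusted p = 0.269). HES1 did so by 1.43 (SE 0.47, unadjusted p = 0.0169, adjusted p = 0.223), and it passed only in the fit with no low-count filter (adjusted p = 0.0351), where 1095 genes were called. NOTCH2 lay lower in both E6R libraries, at -1.02 (SE 0.76, adjusted p = 0.520). The share of all genes whose E6R and DMSO libraries were separate was not counted. Such a separation of 2 libraries from 2 cannot go below p = 0.33 in an exact two-sided permutation test. HES4 had 0 UMIs in both groups, so no fold is given. NOTCH1, NOTCH3, JAG1, DLL3, DLK1 and HES6 overlapped between the groups, with log2 fold changes from -0.41 to 0.44 and adjusted p from 0.700 to 0.939. For NOTCH1 and JAG1 this rested on E6R libraries that differed: without the first E6R library their log2 fold changes were -4.07 (adjusted p = 0.175) and -1.88 (adjusted p = 0.249).

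E6R against TSA tested the 2 treatments against each other, with 38.2% of all genes called, 18.7% higher and 19.5% lower under E6R. Of the 10 genes, 5 were called. NOTCH2 was lower under E6R, with a difference of -4.02 in log2 CPM (SE 0.73, adjusted p = 0.00449), as were NOTCH3 at -3.15 (SE 0.50, adjusted p = 0.00267) and HES6 at -1.96 (SE 0.31, adjusted p = 0.00267). HES4 was at least 61.4-fold lower (adjusted p = 0.00262; 0.129 with DESeq2). HEY1 was higher by 1.92 (SE 0.19, adjusted p = 0.000533). NOTCH2, NOTCH3, HES6 and HEY1 passed in all 21 alternatives. HES1 did not pass (-0.48, SE 0.43, adjusted p = 0.404). NOTCH1 and JAG1 passed without the first E6R library, at -6.12 (adjusted p = 0.000434) and -3.39 (adjusted p = 0.00290), against -1.77 (0.262) and -1.05 (0.358) with it. With all 6 libraries, NOTCH1 also passed with no low-count filter (-1.51, adjusted p = 0.00497). This comparison shares the TSA libraries with TSA against DMSO and the E6R libraries with E6R against DMSO.

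The levels were spread over few cells. For shares, each cell of at least 1000 UMIs was thinned at random to 1000, which kept 11937 cells and left out 5652. A HES6 UMI was found in 2.28% and 4.88% of DMSO cells, 10.9% and 8.61% of TSA cells, and 2.77% and 4.17% of E6R cells. HEY1 was found in 9.44% and 10.4% of DMSO cells, 3.83% and 3.19% of TSA cells, and 11.6% and 12.5% of E6R cells. For both genes the TSA libraries were separate from the rest. DLK1 was the most widespread, in 24.2% and 45.6% of DMSO cells, 23.1% and 32.8% of TSA cells, and 21.2% and 44.1% of E6R cells, so its library difference was also one of how many cells held it. NOTCH2 was in 2.32% and 1.54% of TSA cells and in 0.0449% to 0.476% of other cells, and NOTCH3 in 1.67% and 1.11% against 0.0898% to 0.421%. HES4 was in 0.324% and 0.717% of TSA cells. It was in 0 of 1187 and 0 of 1682 DMSO cells and in 0 of 2199 and 0 of 2228 E6R cells, which puts floors of 3 cells at 0.253%, 0.178%, 0.136% and 0.135%, with exact upper 95% limits of 0.310%, 0.219%, 0.168% and 0.165%. These limit cells with a HES4 UMI at this depth, not cells that express the gene. For any single gene an exact two-sided permutation test of 2 libraries against 2 cannot go below p = 0.33, and 30 such comparisons were computed, so none can pass. Without thinning, HES6 was found in 6.13% and 6.87% of DMSO cells, 32.0% and 23.2% of TSA cells, and 10.8% and 12% of E6R cells, values that also move with depth. The culture held no cell type known to lack these genes, so the share that free RNA gives was not measured. After thinning only DLK1 reached 5% of cells in every library, so no pair of the 10 genes was compared within cells. Without thinning HES6 and HEY1 also did.

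**Figure D3:**
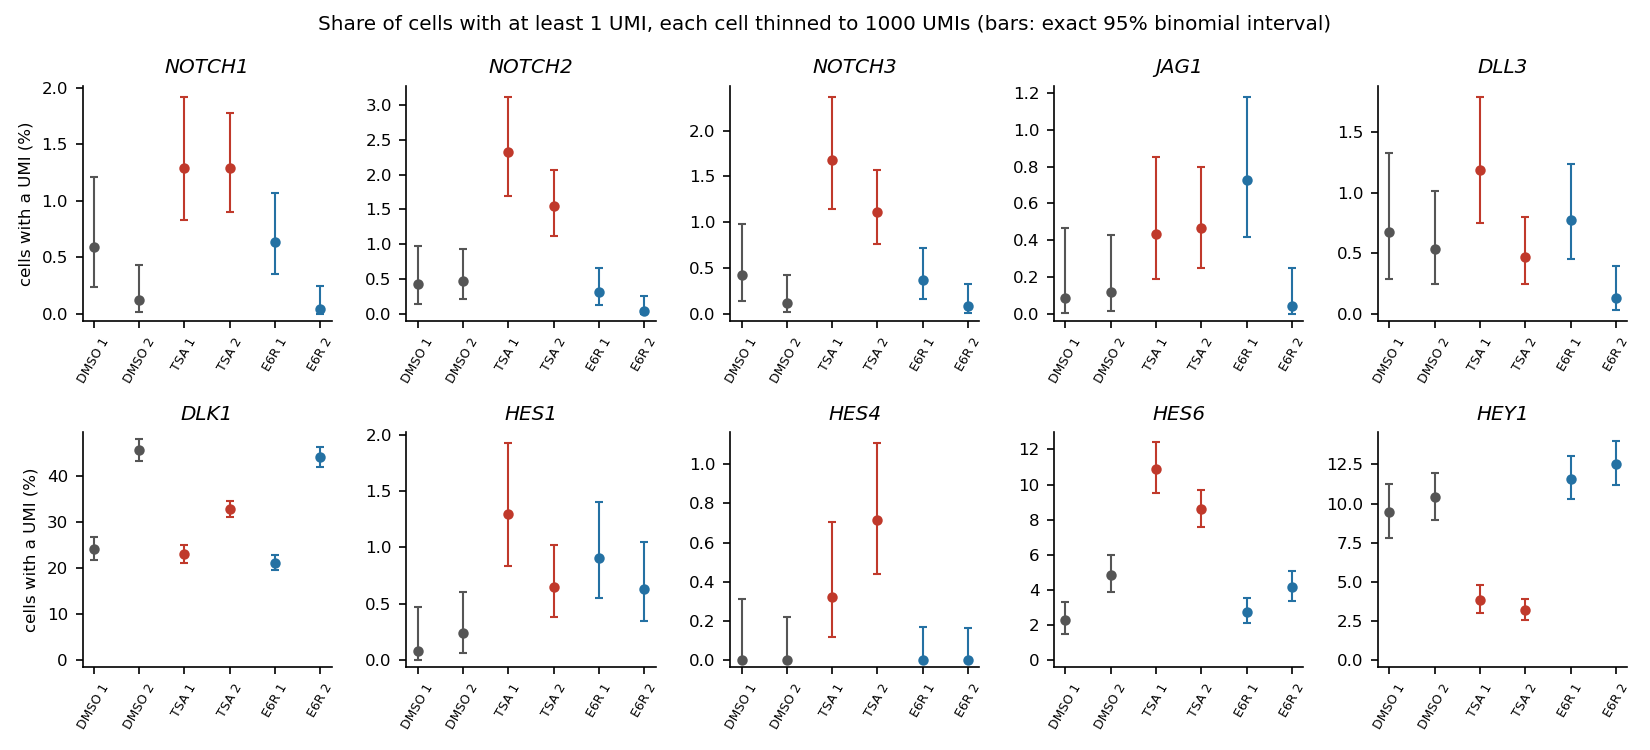
Percent of cells with at least 1 UMI of each gene (vertical axis) in each library, after thinning each cell to 1000 UMIs, with exact 95% binomial intervals that cover counting error only. DLK1 reaches 45.6% and 44.1% in the second DMSO and E6R libraries, and HES6 and HEY1 separate the TSA libraries in opposite directions.

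The rest of the pathway was read from 77 further genes, 68 of them tested. Under TSA 14 rose and 10 fell, 24 of 68 where 29.7% of all genes were called, with a median log2 fold change of 0.13. Corepressors and their partners gave 7 calls of 15 tested, trafficking and turnover genes 6 of 16, receptor glycosylation 2 of 5 and proneural genes 2 of 4. The genes named next were those of at least 20 CPM on average with the largest called changes. HDAC1, a histone deacetylase, rose from 66.3 and 51.8 to 154 and 159 CPM (log2 fold change 1.41, SE 0.20, adjusted p = 0.00267), and the scaffold SIN3A rose from 51.6 and 40.5 to 120 and 146 CPM (1.53, SE 0.24, adjusted p = 0.00401). From the same list TLE3, TLE5 and CTBP2 fell by 2.21, 1.66 and 2.11 on the log2 scale (adjusted p = 0.00916, 0.00416 and 0.00202). CTBP2 went from 219 and 199 CPM to 49.2 and 47.2 CPM. DNM2, the dynamin that pinches off endocytic vesicles, rose by 1.92 (adjusted p = 0.00126), from 119 and 125 to 407 and 519 CPM. RFNG, a fringe enzyme that adds sugar to Notch receptors, rose by 1.60 (adjusted p = 0.0141), a call lost without the first or second DMSO library (0.0559 and 0.0895) or the first or second TSA library (0.0734 and 0.0655). TLE3 lost its call without the first DMSO library (0.0599), the first TSA library (0.0663) and the second (0.0854). DNM2, SIN3A, HDAC1, CTBP2 and TLE5 passed in all 21 alternatives.

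RBPJ, JAG2 and NRARP were chosen for mention after their values were seen. RBPJ, the DNA-binding partner of cleaved Notch, fell from 87.7 and 85.1 to 62.3 and 51.1 CPM (-0.61, SE 0.19, adjusted p = 0.0486). Its adjusted p lay between 0.0473 and 0.320 when single libraries were left out, and it passed only without the second E6R library. JAG2, a second Jagged ligand, rose from 1.91 and 5.55 to 22.3 and 22.4 CPM (2.57, SE 0.63, adjusted p = 0.0191), with adjusted p of 0.0883 without the first DMSO library, 0.0833 without the first TSA library and 0.0904 without the second. NRARP, a feedback target that destabilizes the Notch complex, rose by 1.71 (SE 0.47, adjusted p = 0.0306), a call lost without the first DMSO library (0.0720), the second (0.149), the first TSA library (0.147) and the second (0.137). None of the 5 tested genes among the other HES and HEY targets passed for TSA.

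For E6R against DMSO 0 of the 68 passed in edgeR, with 5 at an unadjusted p under 0.05 and 1 called by DESeq2. For E6R against TSA 31 passed, 13 higher and 18 lower, where 38.2% of all genes were called. Among called genes of at least 20 CPM on average, the largest falls were in DNM2 (-2.06), RFNG (-1.74), MIB2 (-1.67), a ubiquitin ligase that drives ligand uptake, and SIN3A (-1.43). The largest rises were in TLE3 (2.68), CTBP2 (2.21), TLE5 (1.86) and POGLUT1 (1.19), a receptor glucosyltransferase, with adjusted p of 0.00297, 0.00102, 0.00173 and 0.00769. POGLUT1 lost its call without the second TSA library (0.0796), while DNM2, RFNG, MIB2, SIN3A, TLE3, CTBP2 and TLE5 passed in all 21 alternatives.

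**Figure D4:**
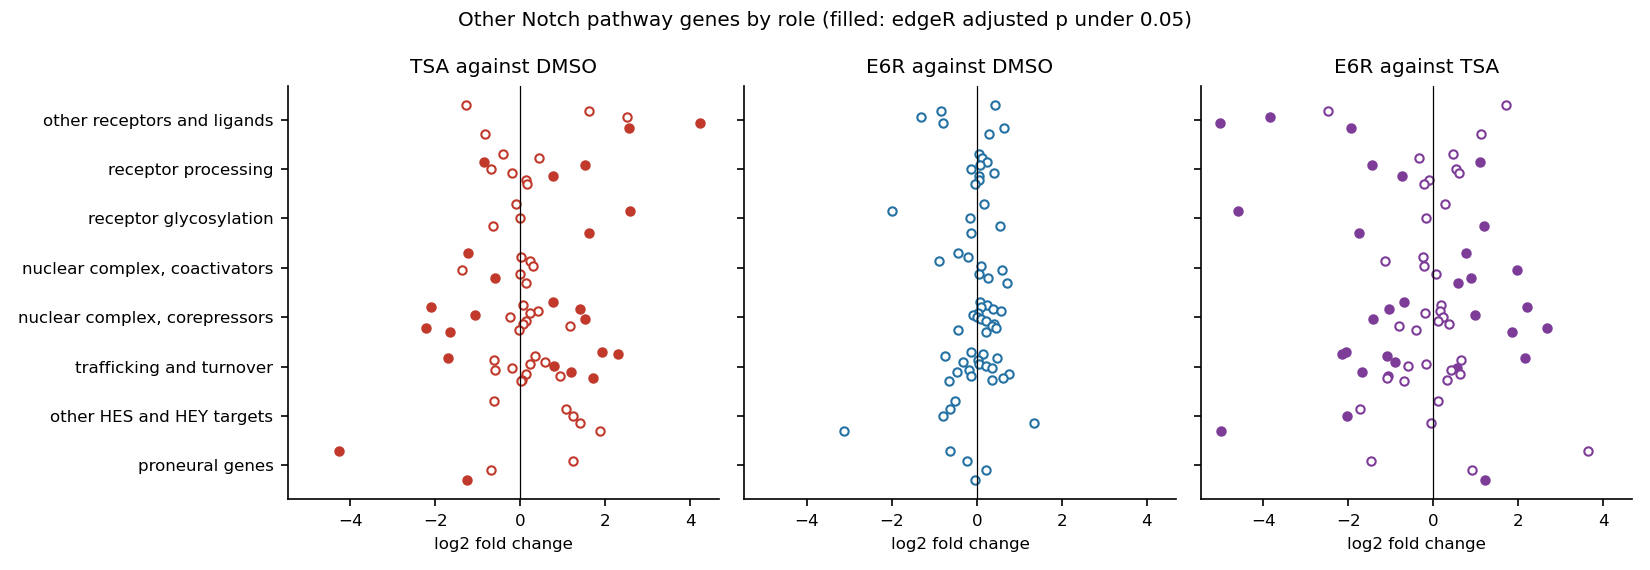
Log2 fold changes (horizontal axis) of the tested genes of each pathway role (rows) in 3 comparisons, filled where the edgeR adjusted p was under 0.05. In the panel of TSA against DMSO 24 points are filled, in that of E6R against DMSO none, and in that of E6R against TSA 31.

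DLK1 lies in an imprinted region on chromosome 14 in which MEG3 and MEG8 are noncoding RNAs of the maternal copy. MEG3 had 394 and 230 CPM under DMSO, 432 and 455 under TSA, and 189 and 298 under E6R. It did not pass for TSA over DMSO (0.51, SE 0.31, adjusted p = 0.247) or E6R over DMSO (-0.36, adjusted p = 0.581), and it missed the threshold for E6R over TSA (-0.87, SE 0.31, adjusted p = 0.0595), which it passed in 8 of 21 alternatives, among them without the first DMSO library (0.0480) and without the second E6R library (0.0216). MEG8 had 145 and 121, 132 and 147, and 67.5 and 115 CPM in the same order and did not pass. Of the neighbours, WARS rose under TSA from 112 and 152 to 314 and 343 CPM (1.31, SE 0.24, adjusted p = 0.00677, and 0.0505 without the second TSA library). WDR25 rose by 0.92 (adjusted p = 0.0402) and YY1 fell by 0.75 (adjusted p = 0.0233), and each lost its call without any 1 of the 4 DMSO and TSA libraries, with adjusted p of 0.106 to 0.190 for WDR25 and 0.0622 to 0.197 for YY1. Of the 9 tested genes around DLK1, 3 rose and 2 fell under TSA, and DLK1 itself did not pass. Over all genes tested 29.7% were called for TSA, 16.2% higher and 13.5% lower.

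Across the 6 libraries, the gene with the pattern most like HEY1, among 7514 genes of at least 20 CPM on average, was STRN3, with a Pearson r of 0.999 of log2 CPM. STRN3 had 60.8 and 69.4 CPM under DMSO, 27.6 and 27.0 under TSA, and 84.6 and 82.1 under E6R. For HES6 it was SCOC (r = 0.996) and for DLK1 BOLA2B (r = 0.984), a gene with near-identical copies whose reads the counting could split. In all, 654 genes had an r above 0.95 with HEY1, 287 with HES6 and 13 with DLK1. With 6 points in 3 groups these values are descriptions.

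Cells with mesenchymal marker RNA were compared with the rest inside each library, a comparison added after seeing the data. Among the 11937 cells, a score counted the UMIs of 9 mesenchymal markers (VIM left out) after thinning to 1000 UMIs. The 711 cells with 2 or more were called mesenchymal-high and the 9409 with none mesenchymal-low, while 1817 cells with 1 UMI lay between and 416 of the high cells were at the limit of 2. The classes are ranges of a score and not cell types. High cells made up 6.82% and 0.535% of DMSO cells, 7.99% and 6.99% of TSA cells, and 11.5% and 1.12% of E6R cells, so the second DMSO and E6R libraries gave only 9 and 25 such cells. The counts before thinning were summed per library and class, with the library as a block, and 12.1% of 11178 genes were called, 7.43% higher and 4.63% lower in high cells.

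DLK1 was lower and NOTCH1 higher in mesenchymal-high cells, and JAG1 was higher in the fit with no low-count filter. DLK1 had 110 CPM in high and 380 CPM in low cells of the first DMSO library, 268 and 693 in the second, 132 and 412 in the first TSA library, 365 and 564 in the second, 210 and 331 in the first E6R library, and 359 and 816 in the second. It was lower in high cells in 6 of 6 libraries, though the second DMSO library held only 7 DLK1 UMIs in high cells. The log2 difference of DLK1 was -1.09 (SE 0.12, adjusted p = 1.0e-09), and it passed in all 11 alternatives. NOTCH1 had 12.3 against 4.63 CPM in the first DMSO library, 22.8 against 10.7 and 27.2 against 15.2 under TSA, and 16.0 against 7.62 in the first E6R library. The small high classes of the second DMSO and E6R libraries held 0 NOTCH1 UMIs. The log2 fold change was 1.02 (SE 0.26, adjusted p = 0.00459), and 0.0632 without the first E6R library.

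JAG1 had too few UMIs for the low-count filter. Its high and low cells had 20.4 and 0.330 CPM in the first DMSO library (5 UMIs and 1 UMI), 13.2 and 4.62 in the first TSA library, 38.4 and 4.82 in the second, and 13.7 and 3.61 in the first E6R library. It was higher in high cells in these 4 libraries, and 0 UMIs were counted in the high cells of the other 2. Without the filter its log2 fold change was 2.26 (SE 0.29, adjusted p = 2.52e-12). This rested on few UMIs, with 11, 24 and 29 in high cells of the first and second TSA and first E6R libraries. No further alternative fits are reported for this JAG1 value. HEY1 was called higher at 0.44 (SE 0.15, adjusted p = 0.0452). It had 212 against 89.6 CPM in the first DMSO library and 216 against 126 in the first E6R library. In the second DMSO library it had 153 against 126 CPM, the former from only 4 UMIs. Values were lower in high cells under TSA (33.6 against 38.5 and 33.6 against 41.5) and in the second E6R library (131 against 140). That call was lost without the first DMSO library (0.346), the second (0.101) and the first E6R library (0.512). It was also lost with high set at 3 or more UMIs (0.196), with thinned counts (0.635) and with no low-count filter (0.159). DLL3 (-0.93, adjusted p = 0.0855), HES6 (-0.35, adjusted p = 0.159) and HES1 (-0.07, adjusted p = 0.931) did not pass, and HES6 passed without the second TSA library (-0.62, adjusted p = 0.0215).

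Other genes moved with these classes. In high cells 6 of 10 adrenergic markers and 12 of 20 mitosis genes were lower. MAML2, a Notch coactivator, was higher (1.31, SE 0.31, adjusted p = 0.00185), as were NCSTN (0.77, adjusted p = 0.00613), a gamma-secretase subunit, and FURIN (0.67, adjusted p = 0.0175), which cuts the receptor precursor. Of the other pathway genes 4 of 54 tested were called, these 3 higher and 1 proneural gene lower, where 12.1% of all genes were called. The 3 were named after their values were seen, and no alternative fits are reported for these 4 calls. MEG3 (-0.50, adjusted p = 0.00118) and MEG8 (-0.46, adjusted p = 0.0112) were lower alongside DLK1. The part of adrenergic or mitosis gene levels in the DLK1 and NOTCH1 differences was not tested.

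**Figure D5:**
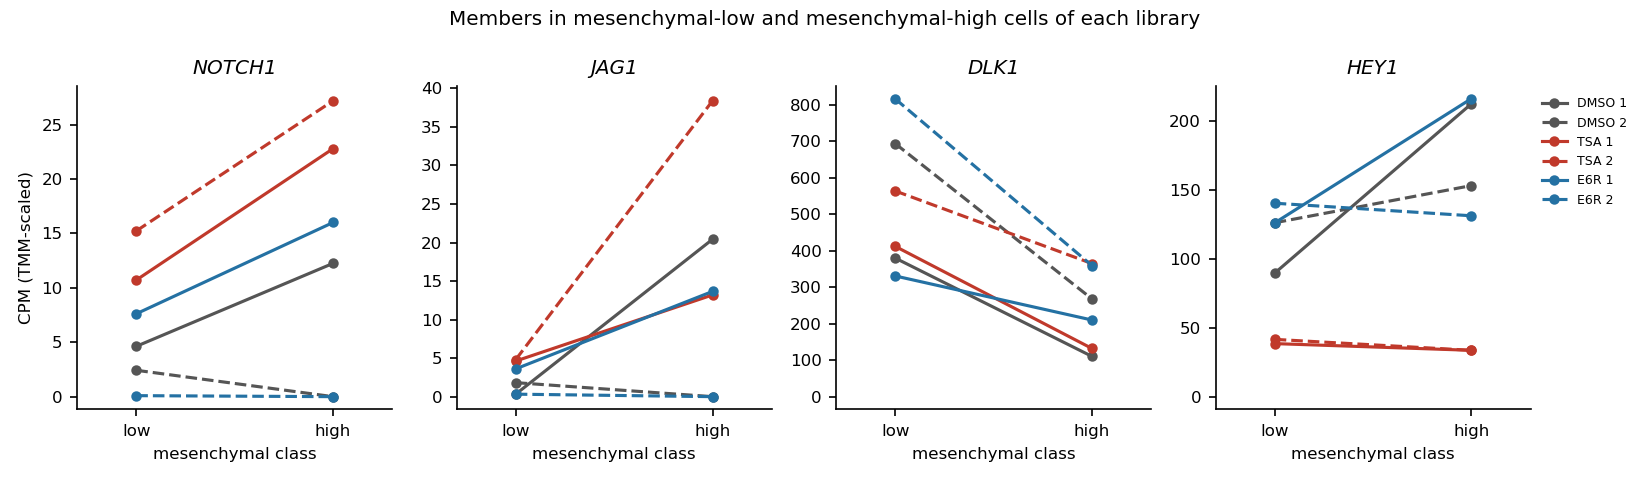
CPM of NOTCH1, JAG1, DLK1 and HEY1 (vertical axis, from 0, scaled by TMM) in mesenchymal-low and mesenchymal-high cells, with 1 line per library (solid for the first, dashed for the second library of each treatment). The DLK1 line falls in all 6 libraries, while the HEY1 lines rise in both DMSO libraries and the first E6R library and fall in the other 3. In the second DMSO library the high points rest on 7 UMIs of DLK1 and 4 of HEY1.

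Mitotic state was also tested with the library as a block, but on summed counts after thinning, where the mesenchymal classes used counts before thinning. The score was the sum of 20 mitosis genes in the thinned cells. The 6619 cells with 4 or more UMIs were called mitotic-high and the 1046 with none mitotic-low. There were 1506 cells 1 UMI below the limit and 1469 at it. Of 6856 genes, 10.4% were called, 5.62% higher and 4.75% lower. HEY1, HES6 and DLK1 could be tested. HEY1 was lower in mitotic-high cells, at -0.71 (SE 0.18, adjusted p = 0.00227), with 80.7 against 207 CPM in the first DMSO library and 106 against 214 in the first E6R library, and with 4 of 6 libraries in that direction. The mesenchymal markers VIM, FN1 and CD44, the 3 that could be tested, were also lower in mitotic-high cells. The call was lost without the first DMSO library (0.101), without the first E6R library (0.0865), with cells thinned to 2000 UMIs (0.352) and with no low-count filter (0.134). HES6 (0.35, adjusted p = 0.449) and DLK1 (0.16, adjusted p = 0.462) did not pass.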

How the data were processed

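The deposited matrices held whole-number UMI counts per gene and barcode, not normalized, made by the authors with STARsolo 2.7.9a on GRCh38, per the submitters' processing notes. No source used here states the annotation, the strand setting or how barcodes were chosen. The 10 genes, the gene lists and the rule for named genes (of the other pathway genes the 4 largest called rises and falls with a mean of 20 CPM or more per comparison, neighbours of DLK1 of 20 CPM or more, and the most alike gene per member) were chosen with earlier results of these data known. Barcodes with at least 500 genes and at most 20% mitochondrial UMIs were kept as cells, and no doublet caller was run. Cells are not replicates, so counts were summed per library and tested with edgeR 4.0.16 (R 4.3.3; quasi-likelihood test, TMM, filterByExpr, Benjamini-Hochberg adjustment over all tested genes at 0.05), with all 6 libraries in 1 fit. SEs came from the F statistic. The scripts were tested on simulated data. Coordinates are from GENCODE 29, which held 34616 of the 36601 gene IDs, and promoter sequences from RefSeq. Alternatives included DESeq2 1.42.0, other filters and scalings, a replicate block and leaving out each library. Intervals and floors cover counting error only. Some listed genes are counted in their lists but not reported here by name.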

Additional observations from a re-analysis of the deposited data

Results flagged for a closer look

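Barcodes with under 500 genes, which were left out of the reported comparisons and entered only 2 alternatives, also carried these genes, at plain CPM of their own UMI sum. The lower of the 2 TSA libraries had 11.7 CPM of NOTCH2, 2.05 CPM of HES4 and 61.6 CPM of HES6 there, each above the upper 95% counting limit of both DMSO libraries. The lower of the 2 E6R libraries had 132 CPM of HEY1, likewise above both. In these barcodes the DMSO libraries had 5.77 and 4.89 CPM of NOTCH2, 0 and 0.287 CPM of HES4 (0 and 1 UMI), 31.5 and 37.7 CPM of HES6, and 91.5 and 109 CPM of HEY1. HES4 also had 1 UMI in small barcodes of the first E6R library. Whether these barcodes hold broken cells or free RNA was not tested.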

How the results depend on the processing

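Over 696 recomputed fold changes of the 10 genes, 632 kept their direction and their side of the threshold. Counts of calls moved when single libraries were left out. For TSA against DMSO the genes called among the 10 ranged from 2 to 8, the other pathway genes from 5 to 27 and all genes from 1416 to 6028. For E6R against DMSO all genes ranged from 0 to 3, and for E6R against TSA the pathway genes ranged from 13 to 29 and all genes from 2628 to 6385. In these fits a lone library was assumed to vary like the other groups.
For E6R against DMSO, with no low-count filter edgeR called 1 of the 10 genes, 1 pathway gene and 1095 genes in all, while DESeq2 called 1 pathway gene and 361 genes. All deposited barcodes, cells with no mesenchymal score UMI after thinning, and the fit without mitochondrial and ribosomal protein genes each gave 1 call.
For E6R against TSA, cells thinned to 1000 UMIs gave 20 pathway genes and 4105 genes.
In the comparisons of cell classes, the members called for mitotic state were 0 with cells thinned to 2000 UMIs, 0 with no low-count filter and 0 to 1 over the fits without single libraries. For the mesenchymal classes they were 1 with thinned counts and 1 to 4 without single libraries.
Some changes that had not passed turned in sign, and the cause was not tested. For TSA over DMSO, DLK1 turned to 0.0033 with a lower gene minimum per barcode and 0.10 with all deposited barcodes, and ranged from -0.42 to 0.47 without single libraries (turned to 0.47, 0.22 and 0.00063). DLL3 ranged from -0.10 to 0.74. For E6R over DMSO, NOTCH1 turned to -0.037 without the 5% of cells with most UMIs, and DLL3 to -0.40 and DLK1 to -0.085 with thinned cells. Without single libraries NOTCH1 ranged from -4.07 to 1.29, NOTCH3 from -1.13 to 0.20, JAG1 from -1.88 to 1.36, DLL3 from -0.15 to 0.96, DLK1 from -0.55 to 0.89, HES6 from -0.55 to 0.22 and MEG3 from -0.68 to 0.21. For E6R over TSA, DLL3 turned to -1.03 with thinned cells and ranged from -0.52 to 0.61 without single libraries, and DLK1 ranged from -0.53 to 0.89. Between mesenchymal classes HES1 ranged from -0.32 to 0.10.
The replicate numbers are shared by the groups, and deviations of same-numbered libraries from their group means correlated at 0.24, 0.56 and 0.17 over 7515 genes, but with 2 pairs the numbers were not taken as a pairing. With the replicate block, 6 of the 10 genes, 25 pathway genes and 6047 genes in all were called for TSA over DMSO, 0, 0 and 19 for E6R over DMSO, and 6, 36 and 7567 for E6R over TSA. Under the block, DLK1 turned to 0.041 for TSA over DMSO, NOTCH1 to -0.24 for E6R over DMSO, and NOTCH1 passed for E6R over TSA (-2.75, adjusted p = 0.0384).
Shares of cells with a UMI moved beyond their counting interval in 37 of 60 cases when thinned to 500 UMIs and in 46 of 60 without thinning. NOTCH1, NOTCH2, NOTCH3, JAG1 and HES1 had 5 to 11 UMIs in their lowest library, so smaller changes in them were not detectable at this depth.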
